A study of Mus musculus with 14 samples.

Results

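Blimp-1, the transcriptional repressor encoded by Prdm1, was examined together with 8 transcription factors that act on it, act with it or are repressed by it in other lymphocytes. The 9 genes were Prdm1, its homologue Zfp683 (Hobit), the antagonists Bcl6, Bach2 and Pax5, the interferon regulatory factors Irf4 and Irf8, Maf and Id3. They were taken by name from the 53278 genes of the deposited tables, and all 9 were present. Type 2 innate lymphoid cells (ILC2s), tissue-resident lymphocytes that respond to alarmins with type 2 cytokines, were sorted from the lungs of individual female mice as live, lineage-, CD90.2+, CD3- cells and profiled in 14 RNA-seq libraries. In the stimulation experiment, cells of genotype B6 were left Unstimulated (n = 4) or received 20 ng/mL of IL-33, an alarmin, over 24 h (IL-33 stimulated, n = 4). The labels place the Unstimulated cells in culture without giving a time, the study's design text gives them the same 24 h as the stimulated cells, and the study also calls them ex vivo. If they were not cultured, the differences between these groups also include those of culture. In the Blimp-1 experiment, cells from ControlIL7RaCre mice (Control, n = 3) and Blimp-1IL7RaCre mice (Blimp-1-deficient, n = 3), matched for age, were cultured over 72 h in 20 ng/mL of IL-33 plus 20 ng/mL of IL-25. IL-2 is named for this culture by the methods of the study alone. The Cre of both genotypes is driven by the Il7r gene and acts in T cells, B cells, NK cells and all ILCs, so in the Blimp-1-deficient mice Prdm1 was deleted beyond ILC2s. All animals were over 6 weeks old, with no closer age given. The labels and design text name individual mice, whereas captions of the study speak of sorts pooled from 2 animals, so a library may stand for more than 1 mouse. The comparisons ask whether IL-33 moves Prdm1 and the factors around it, and how those factors stand when Prdm1 is deleted.

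Blimp-1 is best known from B cells, where it drives plasma cell differentiation by shutting off the B cell programme, including Pax5 and Bcl6. Bcl6 and Bach2 in turn repress Prdm1, which makes the antagonists mutually exclusive in many lymphocytes, while IRF4 and AP-1 factors activate it. In T cells and innate lymphocytes Blimp-1 restrains memory and stem-like programmes and, with Hobit, supports tissue residency.

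Promoter sequence from RefSeq (GRCm38.p6, 250 bases before to 50 bases after each transcription start) was matched for 7 of the 9 genes, with 9 promoters in all. Maf and Zfp683 were not matched. Both strands were searched for GNGAAAG, a loose form of the core that Blimp-1 binds, for TTCNNNGAA, the spaced palindrome of STAT factors, and for TGANTCA, the element of AP-1, Bach and Maf factors. GNGAAAG overlaps the sequences that IRF factors bind, and TGANTCA is shared by the families named. GNGAAAG was found in promoters of 4 genes (Bcl6, Bach2, Irf4 and Pax5), TTCNNNGAA in those of 3 (Bcl6, Bach2 and Irf8) and TGANTCA in that of Prdm1. Of all 32851 promoters of that length, 22.6% hold GNGAAAG, 8.30% hold TTCNNNGAA and 7.81% hold TGANTCA, and a match describes the letters only. The stretches printed here hold some of these matches, in the promoters of genes whose levels the results turn on. The TTCNNNGAA matches of Bach2 and of the first start of Bcl6 lie outside them. Each stretch is given 5′ to 3′ on the strand of the gene, with the match in capitals. The matches of Bach2 and Irf4 read GNGAAAG on the opposite strand.
Prdm1, TGANTCA, chr10:44458769-44458828, minus strand: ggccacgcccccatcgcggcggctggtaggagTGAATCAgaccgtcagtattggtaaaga
Bcl6, first start, GNGAAAG, chr16:23988983-23989042, minus strand: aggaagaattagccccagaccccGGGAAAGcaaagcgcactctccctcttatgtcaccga
Bcl6, second start, TTCNNNGAA, chr16:23981354-23981463, minus strand: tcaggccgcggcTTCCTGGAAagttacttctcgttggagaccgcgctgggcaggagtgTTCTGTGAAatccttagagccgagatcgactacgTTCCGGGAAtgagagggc
Bach2, GNGAAAG, chr4:32417375-32417434, plus strand: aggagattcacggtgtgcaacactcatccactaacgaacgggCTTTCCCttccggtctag
Irf4, GNGAAAG, chr13:30749173-30749232, plus strand: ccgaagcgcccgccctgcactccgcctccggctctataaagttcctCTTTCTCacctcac
Irf8, TTCNNNGAA, chr8:120736168-120736227, plus strand: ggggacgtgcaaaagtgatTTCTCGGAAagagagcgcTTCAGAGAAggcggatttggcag

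The libraries held 10470125 to 32849428 counts each in the stimulation experiment, and those of the Blimp-1 experiment 13570188 to 76448945. Levels are given as TMM-normalized counts scaled to 1e+06 per library (CPM), scaled over all 14 libraries together, and tests were fitted within each experiment with edgeR's quasi-likelihood test and Benjamini-Hochberg adjustment over all genes tested. The experiments differ in genotype, culture time and cytokines, so their levels are set side by side and not tested against each other. A difference in level between them cannot be assigned to any of these alone. A pair of libraries stood apart. IL-33 stimulated replicate 3 had the fewest counts, and 7 loci took 76.8% of all counts of Control replicate 2, so results are given with and without these libraries. In Control replicate 2, 3 counts are worth 0.815 CPM, against 0.0353 to 0.0442 CPM in the rest of that experiment. All 13 ILC2 markers examined, among them Gata3, Il1rl1 and Il7r, had at least 1 CPM in every group, though 11 of them were lowest of their group in IL-33 stimulated replicate 3 and 12 in Control replicate 2. The 12 B cell markers examined together summed to 26.3 to 42.4 CPM, mostly from Cd79b and Ighm. In bulk RNA, more cells expressing a gene and more RNA per cell cannot be told apart.

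Prdm1 (ENSMUSG00000038151.13, chromosome 10 of GRCm38, 44437177 to 44528501, minus strand) was detected at a substantial level in the Unstimulated libraries. Its level was 80.2, 62.0, 56.5 and 83.3 CPM in Unstimulated replicates 1 to 4 and 65.5, 70.1, 33.7 and 48.4 CPM in IL-33 stimulated replicates 1 to 4. The groups overlapped, and the lowest stimulated value was that of replicate 3, the shallow library. Over all libraries the log2 fold change was -0.43 (standard error 0.25, adjusted p = 0.213, edgeR), with a 95% interval from -1.01 to 0.15. Without replicate 3 it was -0.25 (standard error 0.16, adjusted p = 0.200) by the same edgeR test, with an interval from -0.60 to 0.10.

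In the Blimp-1 experiment Prdm1, the targeted gene, was at 87.5, 103 and 84.7 CPM in Control replicates 1 to 3, and the Blimp-1-deficient replicates 1 to 3 held 16.6, 13.1 and 13.0 CPM. Every Control library lay above every Blimp-1-deficient one, in the direction of the labels. The fall was 6.43-fold over all libraries (log2 fold change -2.68, standard error 0.15, adjusted p = 0.00441) and 5.93-fold without Control replicate 2 (adjusted p = 0.000134, edgeR). The table counts the whole gene, including exons outside the deleted part, so the remaining 14.2 ± 2.04 CPM (SD, n = 3) cannot be read as intact transcript. Leaving out any one of the Blimp-1-deficient libraries moved the adjusted p of edgeR to between 0.05005 and 0.0656.

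Genes that start within 500 kb of Prdm1 were read beside it, with distances from the first start of its gene model, which lies 69.8 kb before the RefSeq start of the promoter shown. Atg5, an autophagy gene 260 kb from the start of Prdm1, fell by 0.26 on the log2 scale after IL-33 (standard error 0.07, adjusted p = 0.0233, edgeR), and by 0.24 without replicate 3. Its log2 fold change with Prdm1 deleted was 0.02 (adjusted p = 0.976, edgeR). Crybg1, 380 kb away, had a log2 fold change of -0.39 in the Blimp-1 experiment (adjusted p = 0.645) and fell by 0.62 without Control replicate 2 (adjusted p = 0.00586), where that library was at 166 CPM against 346 and 316 CPM in the other Controls. The lincRNA Gm35028, 104 kb from that first start, 34.4 kb from the RefSeq start and 12.9 kb past the end of the Prdm1 gene body, was at or below 0.422 CPM in the 11 libraries of the other groups and at 35.5, 26.2 and 21.8 CPM in the Blimp-1-deficient ones.

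**Figure D1:**
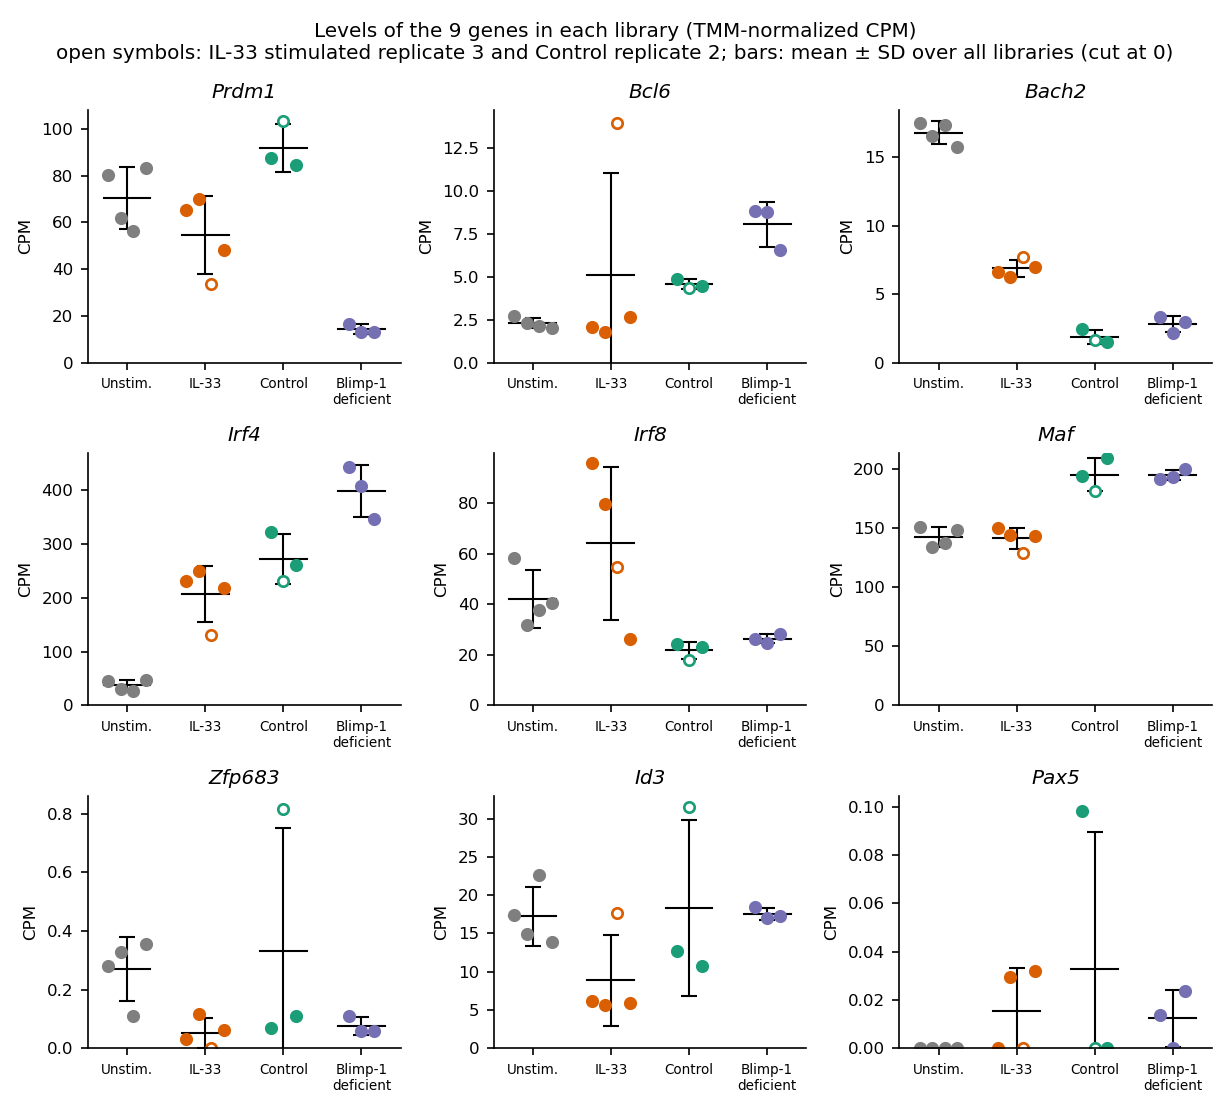
Levels of the 9 genes in each library as TMM-normalized CPM, 1 panel per gene with its own axis from 0. Points are libraries, open points are IL-33 stimulated replicate 3 and Control replicate 2, and black bars give the mean ± SD of all libraries of a group, cut at 0. Irf4 stands at 26.9 to 46.8 CPM in Unstimulated libraries and at 131.5 CPM or more elsewhere, and the open points of Bcl6 and Id3 lie far from the other IL-33 stimulated libraries.

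Zfp683 encodes Hobit, which acts with Blimp-1 in tissue-resident lymphocytes, and it was near the limit of detection. The raw counts were 9, 13, 3 and 13 in Unstimulated and 1, 4, 0 and 2 in IL-33 stimulated replicates 1 to 4, or 0.269 ± 0.109 and 0.0531 ± 0.0507 CPM (SD, n = 4 each). The groups overlapped on the CPM scale through Unstimulated replicate 3 and IL-33 stimulated replicate 2. The exact two-sided permutation test gave p = 0.0571, where the smallest p this design allows is 0.0286. In the Blimp-1 experiment the counts were 5, 3 and 9 in Control and 8, 4 and 5 in Blimp-1-deficient replicates 1 to 3. The 0.815 CPM of Control replicate 2 is the worth of its 3 counts, while the other Control libraries were at 0.0701 and 0.109 CPM and the Blimp-1-deficient ones at 0.0588 to 0.110 CPM. The exact p was 0.3, with 0.1 as the smallest possible. Outside Control replicate 2 no library exceeded 0.356 CPM.

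Bcl6 (ENSMUSG00000022508.5, chromosome 16, 23965052 to 23988852, minus strand), the antagonist of Blimp-1 in germinal centre B cells and follicular helper T cells, was low in every group. It was at 2.73, 2.32, 2.12 and 2.02 CPM in Unstimulated and at 2.05, 1.77, 13.96 and 2.65 CPM in IL-33 stimulated replicates 1 to 4. Apart from replicate 3 the stimulated values lay around the unstimulated ones. The log2 fold change was 1.02 (standard error 0.66, adjusted p = 0.255, edgeR) over all libraries and -0.14 (standard error 0.20, adjusted p = 0.595) without replicate 3, so that library alone set the direction. In replicate 3 some myeloid and dendritic cell markers were high as well: Csf1r was at 26.6 CPM against 0.443 to 1.99 CPM in the other stimulated libraries, Zbtb46 at 12.8 against 1.296 to 1.57 CPM and Flt3 at 3.76 against 0.0320 to 0.121 CPM. The 14 markers of the myeloid list summed to 175 CPM there and to 79.8 to 144 CPM in the other stimulated libraries, with Lyz2, the most abundant of them, at 71.1 CPM against 23.9 to 73.5 CPM. Of the 14, 7 were highest of the stimulated libraries in replicate 3, 2 were lowest (Itgax at 6.93 CPM and Cd68 at 7.41 CPM) and 3 were at 0 (Siglech, Clec9a and Cd209a). These 3 did not exceed 0.0904 CPM in the other stimulated libraries, less than the 0.0963 CPM of 1 count in replicate 3. The part of the 14 markers in the Bcl6 level was not tested.

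With Prdm1 deleted, Bcl6 stood higher in every library. It was at 4.88, 4.34 and 4.45 CPM in Control and at 8.82, 8.79 and 6.54 CPM in Blimp-1-deficient replicates 1 to 3. The groups did not overlap, and the fold was 1.76 with and without Control replicate 2. With all 6 libraries this did not pass the threshold (log2 fold change 0.82, standard error 0.18, adjusted p = 0.133, edgeR), and without Control replicate 2 it did (log2 fold change 0.81, standard error 0.17, adjusted p = 0.0219). The 95% intervals were 0.38 to 1.26 and 0.42 to 1.21. In Control replicate 2 the level rests on 16 counts.

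Bach2 (ENSMUSG00000040270.16, chromosome 4, 32238804 to 32586108, plus strand), a repressor that keeps lymphocytes from effector differentiation and that represses Prdm1, fell after IL-33. It was at 17.5, 16.5, 17.4 and 15.7 CPM in Unstimulated and at 6.63, 6.27, 7.70 and 7.0 CPM in IL-33 stimulated replicates 1 to 4. All stimulated libraries, replicate 3 included, lay below all unstimulated ones, with little spread within each group. The fall was 2.56-fold (log2 fold change -1.36, standard error 0.11, adjusted p = 0.000106, edgeR), and 2.61-fold without replicate 3 (adjusted p = 1.04e-06). Bach1, its close relative, fell by 1.64 on the log2 scale in the same comparison (adjusted p = 0.00106). T cells express Bach2 and Id3 as well, and T cell markers moved with them: 6 of 11 fell after IL-33, where 16.1% of all genes tested fell, and the 11 together summed to 153 to 177 CPM in Unstimulated against 42.4 to 62.2 CPM in stimulated libraries. Most of the sum was Trbc2, which ILC2s are known to transcribe, while Cd3e was at 4.39 to 8.36 CPM and 1.64 to 4.79 CPM. None of the 11 was at 0 in every library of a group, and their part in the fall of Bach2 was not tested.

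In the 72 h cultures of the Blimp-1 experiment Bach2 was lower still, at 2.45, 1.63 and 1.51 CPM in Control and 3.31, 2.15 and 2.94 CPM in the libraries of Blimp-1-deficient mice. This step between experiments was not tested, and genotype, culture time and cytokines cannot be told apart in it. The ranges of Control and Blimp-1-deficient libraries overlapped. A log2 fold change of 0.57 was fitted (standard error 0.30, adjusted p = 0.543, edgeR), or 0.53 without Control replicate 2 (adjusted p = 0.240), with a 95% interval from -0.12 to 1.185 in the latter. In Control replicate 2 the value rests on 6 counts. Bach2os, an antisense gene, overlaps 5.40% of the exon bases of Bach2, and the strand setting of the counting is not stated.

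Pax5, the B cell identity factor that Blimp-1 silences in plasma cells, was at or near 0. Its raw counts were 0 in all Unstimulated libraries, 0, 1, 0 and 1 in the IL-33 stimulated ones, 7, 0 and 0 in Control and 1, 0 and 2 in Blimp-1-deficient replicates 1 to 3. A count of 0 allows up to 3 counts, which is 0.0757 to 0.112 CPM in the Unstimulated libraries. No difference was detectable at this depth when Prdm1 was deleted (exact two-sided permutation p = 1.0, with 0.1 as the smallest possible), nor after IL-33 (exact p = 0.429, with 0.0286 as the smallest possible).

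**Figure D2:**
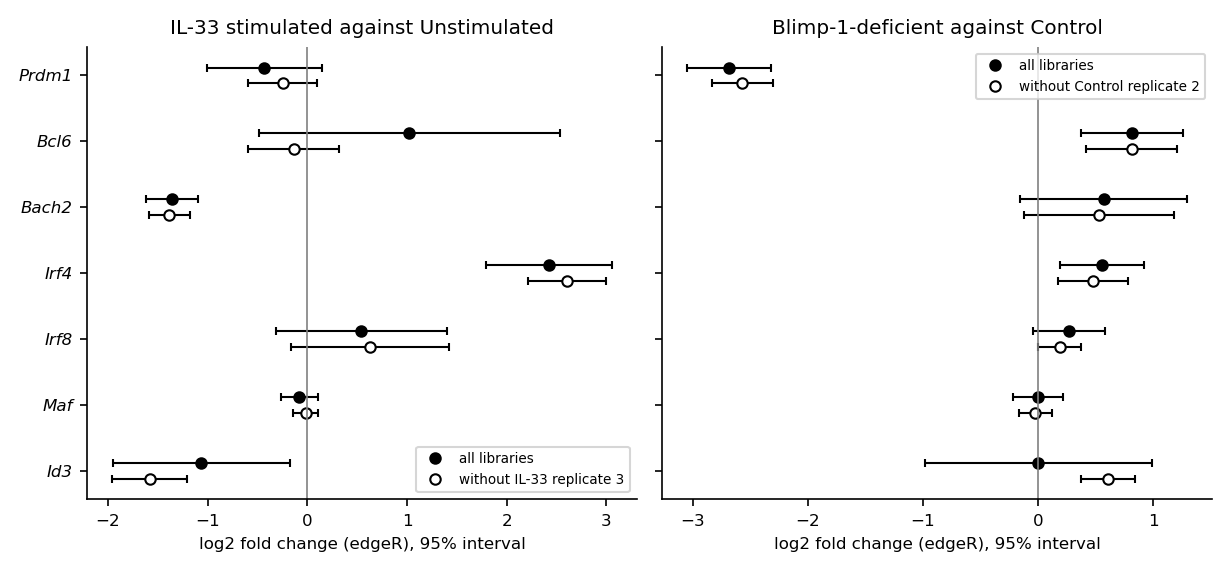
Log2 fold changes of the 7 genes that passed the filter on low counts, left for IL-33 stimulated against Unstimulated and right for Blimp-1-deficient against Control, with 95% intervals from edgeR. Filled points use all libraries and open points leave out IL-33 stimulated replicate 3 or Control replicate 2. Bach2 and Irf4 keep their place with and without replicate 3, whereas Bcl6 on the left crosses 0 and Id3 on the right moves from 0.00 to 0.61.

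Irf4 (ENSMUSG00000021356.10, chromosome 13, 30749226 to 30766976, plus strand), which encodes an activation-induced factor that drives Prdm1 in plasma cells and effector T cells, had the largest rise of the 7 genes tested after IL-33. It was at 44.8, 29.9, 26.9 and 46.8 CPM in Unstimulated and at 231, 249.99, 132 and 218 CPM in IL-33 stimulated replicates 1 to 4. The groups did not overlap, replicate 3 being the lowest of the stimulated libraries. The rise was 5.37-fold (log2 fold change 2.42, standard error 0.27, adjusted p = 0.000401, edgeR) and 6.08-fold without replicate 3 (adjusted p = 1.25e-06). Among the 15466 genes tested, 7.05% had a log2 fold change at least as large in size, as did 2.01% of the 15733 tested without replicate 3.

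Irf4 also stood higher in every library with Prdm1 deleted, without passing the threshold. It was at 323, 232 and 262 CPM in Control and at 444, 407 and 347 CPM in Blimp-1-deficient replicates 1 to 3, and the groups did not overlap. The log2 fold change of 0.56 (standard error 0.15, 95% interval 0.19 to 0.92) had an adjusted p of 0.212 (edgeR). Without Control replicate 2 it was 0.48 (standard error 0.13) with an adjusted p of 0.0502, just outside it.

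Irf8 (ENSMUSG00000041515.10, chromosome 8, 120736358 to 120756694, plus strand), a relative of Irf4 that specifies B cells, monocytes and dendritic cells, varied more between stimulated animals than between the groups. It was at 58.3, 31.7, 37.9 and 40.4 CPM in Unstimulated and at 95.8, 79.5, 54.6 and 26.4 CPM in IL-33 stimulated replicates 1 to 4. Replicate 4 was below every unstimulated library and replicates 1 and 2 above them. The fitted log2 fold change was 0.54 (standard error 0.37, adjusted p = 0.287, edgeR), and 0.63 without replicate 3 (adjusted p = 0.153). Among 10630 genes with a mean of at least 5 CPM in these 8 libraries, those with the profile most like that of Irf8, by the root mean square difference of centred log2 levels, were Irf1 (0.120), Parp14 (0.182) and Xaf1 (0.242), all known as interferon-responsive genes. Irf1 was at 252, 218, 141 and 66.1 CPM in IL-33 stimulated replicates 1 to 4, in the same order as Irf8.

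**Figure D3:**
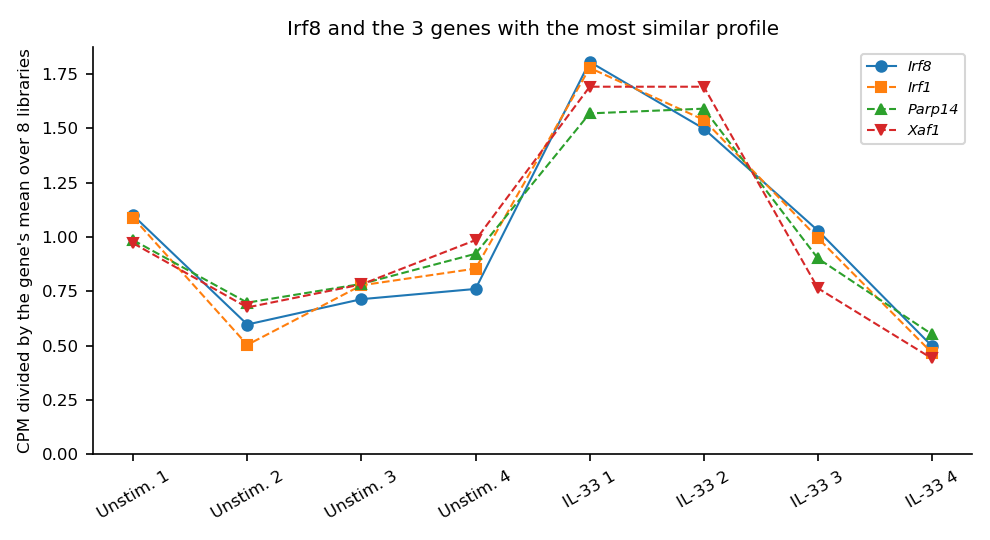
Irf8 and the 3 genes with the most similar profile over the 8 libraries of the stimulation experiment, each as its CPM divided by its own mean over these libraries. The lines join libraries of 1 gene for reading only. All 4 genes are high in IL-33 stimulated replicates 1 and 2 and low in replicate 4, where Irf8 is at 26.4 CPM.

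Irf8 in the Blimp-1 experiment was at 24.3, 17.9 and 22.9 CPM in Control and at 26.1, 24.7 and 28.3 CPM in Blimp-1-deficient replicates 1 to 3. The groups did not overlap, with a gap between 24.3 and 24.7 CPM that is smaller than the spread within either group. The log2 fold change was 0.27 (standard error 0.13, adjusted p = 0.499, edgeR), and 0.19 without Control replicate 2 (adjusted p = 0.156). Of the 9 genes of the IRF family, all tested, Irf9 rose with all libraries (log2 fold change 0.88, adjusted p = 0.0398), where 0.45% of all genes did, and without Control replicate 2 Irf7 (1.90, adjusted p = 0.00730), Irf9 (0.87, adjusted p = 0.00411) and Irf5 (0.68, adjusted p = 0.00435) did, where 8.25% of all genes rose. After IL-33, Irf5 rose beside Irf4, with a log2 fold change of 0.91 (adjusted p = 0.00284).

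Maf (ENSMUSG00000055435.6, chromosome 8, 115682942 to 115707794, minus strand), which encodes c-Maf and works beside Blimp-1 in IL-10-producing T cells, had the smallest log2 fold change of the 7 genes tested in either experiment over all libraries. It was at 151, 134, 137 and 149 CPM in Unstimulated and at 150.1, 144, 129 and 143 CPM in IL-33 stimulated replicates 1 to 4. Control libraries were at 194, 182 and 209.6 CPM and Blimp-1-deficient ones at 192, 194 and 200.3 CPM. Neither comparison separated its groups. The log2 fold change was -0.08 after IL-33 (standard error 0.08, 95% interval -0.27 to 0.11) and 0.00 with Prdm1 deleted (standard error 0.09, 95% interval -0.22 to 0.22). After IL-33 the call changed with the scaling, since Maf was lower by 0.24 with library size alone (adjusted p = 0.0287, edgeR) and by 0.41 with limma on log2(TPM + 1) (adjusted p = 0.0311). Gm15655, an antisense gene, overlaps 5.34% of the exon bases of Maf.

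Id3 (ENSMUSG00000007872.3, chromosome 4, 136143497 to 136145755, plus strand), an inhibitor of E proteins that Blimp-1 represses in T cells, depended on the libraries that stood apart. It was at 17.4, 14.9, 22.6 and 13.9 CPM in Unstimulated and at 6.18, 5.65, 17.7 and 5.91 CPM in IL-33 stimulated replicates 1 to 4. All stimulated libraries but replicate 3 lay below the unstimulated ones. The log2 fold change was -1.06 (standard error 0.38, adjusted p = 0.0690, edgeR), and Id3 fell by 1.58 without replicate 3 (standard error 0.17, adjusted p = 2.62e-05). With all libraries DESeq2 (adjusted p = 0.0229) and voom with sample quality weights (adjusted p = 1.53e-05) called Id3 lower too. Fos was at 17.9 CPM in replicate 3 and at 5.47 to 6.52 CPM in the other stimulated libraries, and was among the 3 genes most like Id3 in profile. The mixed myeloid marker levels of that library, given beside Bcl6, apply to Id3 too, and their part in it was not tested.

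Id3 in the Blimp-1 experiment was at 12.6, 31.5 and 10.8 CPM in Control and at 18.4, 16.96 and 17.3 CPM in Blimp-1-deficient replicates 1 to 3. The Blimp-1-deficient libraries lay close together, between Control replicate 2 and the other Controls. The log2 fold change was 0.00 over all libraries (standard error 0.41, adjusted p = 0.999), and without Control replicate 2 Id3 rose by 0.61 (standard error 0.10, adjusted p = 0.00996, edgeR), a comparison of 3 libraries with 2. The 31.5 CPM of Control replicate 2 rest on 116 counts, so the counting error is small. Sdc1, a plasma cell and epithelial marker, was at 50.2 CPM in that library and at 9.85 and 10.04 CPM in the other Controls. It made up most of the sum of the 8 plasma cell markers, 51.9 CPM against 11.3 and 11.4 CPM. Mzb1 was also highest there, at 0.543 CPM against 0.0982 and 0.218 CPM, and Derl3 was at 1.09 CPM against 1.09 and 1.06 CPM. The other 5, Jchain, Igha and Igkc included, were at 0 there. In the other Controls these 5 did not exceed 0.182 CPM, which is below the 0.272 CPM that 1 count is worth in Control replicate 2. The part of the 8 markers in the Id3 level was not tested.

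Per kb of gene length, the order of the genes within a group gives how their levels compare. In Unstimulated ILC2s Maf (17.3 CPM per kb) and Prdm1 (12.6) led, followed by Id3 (9.61), Irf4 (7.57) and Irf8 (5.96), with Bach2 at 1.69 and Bcl6 at 0.343. Irf4 took the first place in every other group, at 42.3 after IL-33, 55.5 in Control and 81.5 in Blimp-1-deficient cells. In Control ILC2s Prdm1 (16.5) ranked behind Irf4 and Maf (23.7), and only 11.5% of genes with a count were at or above it. With Prdm1 deleted it stood behind Irf4, Maf, Id3 and Irf8 at 2.55. Its order over groups was Control, Unstimulated, IL-33 stimulated and Blimp-1-deficient, with Unstimulated and IL-33 stimulated not separated, while that of Irf4 was Blimp-1-deficient, Control, IL-33 stimulated and Unstimulated, with Control and IL-33 stimulated overlapping. Steps between groups of different experiments were not tested, as genotype, culture time and cytokines differ with them.

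**Figure D4:**
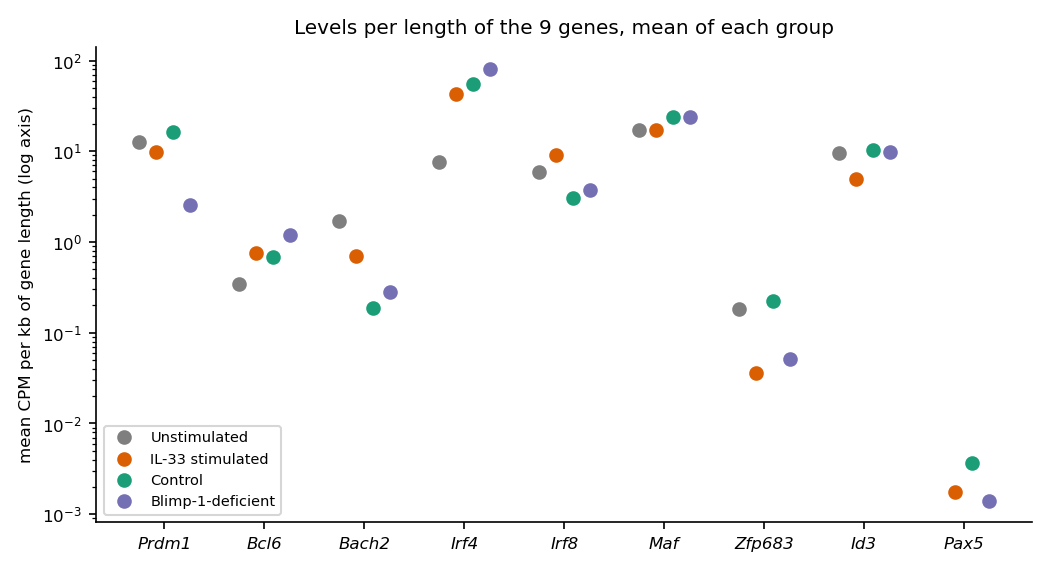
Mean levels of the 9 genes in CPM per kb of gene length in the 4 groups, on a log axis. Zero means are not drawn, so Pax5 has no Unstimulated point. Irf4 is the highest of the genes in all groups but Unstimulated, and Pax5 the lowest.

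Ratios of levels per length within a library do not depend on the scaling between libraries, and the paired genes were set side by side in this way. Prdm1 stood at 37.2 ± 8.29 times Bcl6 in Unstimulated (SD, n = 4) and at 24.3 ± 3.76 times in Control (SD, n = 3), against 2.15 ± 0.313 in Blimp-1-deficient cells (SD, n = 3). In IL-33 stimulated cells it was 35.9 ± 13.0 without replicate 3, where it was 2.90. Prdm1 to Bach2 was 7.51 ± 1.61 in Unstimulated and 14.4 ± 5.44 in IL-33 stimulated cells, with replicate 3 at 7.79 inside the unstimulated range of 5.79 to 9.43. In Control it was 92.2 ± 25.7, and in Blimp-1-deficient cells 9.24 ± 1.52. Ratios of different experiments were not tested against each other either. Irf4 to Prdm1 was 0.591 ± 0.0530 in Unstimulated and 4.41 ± 0.513 in IL-33 stimulated cells, where every library of the one group lay below every library of the other, replicate 3 included.

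**Figure D5:**
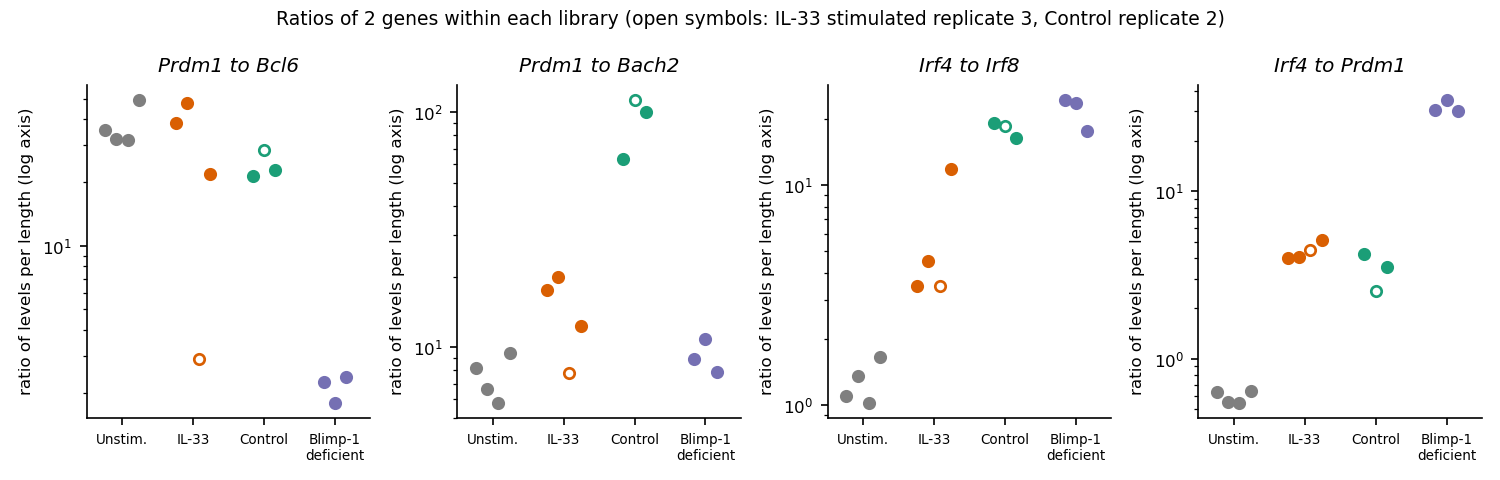
Ratios of the levels per length of 2 genes within each library, on log axes. Open points are IL-33 stimulated replicate 3 and Control replicate 2. Irf4 to Prdm1 separates all 4 Unstimulated libraries, at 0.542 to 0.639, from the IL-33 stimulated ones at 4.02 to 5.12.

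Counted over the 7 genes that passed the filter on low counts, 1 rose after IL-33 (Irf4) and 1 fell (Bach2), where 32.3% of all genes tested passed the threshold, 16.2% higher and 16.1% lower. Without replicate 3 the members were 1 higher and 2 lower, Id3 being added, where 57.2% of all genes passed, 27.5% higher and 29.7% lower. With Prdm1 deleted 1 of the 7 fell, the deleted Prdm1, and 0 rose, where 0.756% of all genes passed, 0.45% higher and 0.306% lower. At an unadjusted p below 0.05, Bcl6 and Irf4 were higher in that edgeR fit, and DESeq2 called 2 higher, the same 2 genes, beside Prdm1 lower. In either direction 11.9% of all genes had an unadjusted p below 0.05 there and 5.86% were called by DESeq2. Without Control replicate 2, 2 rose (Bcl6 and Id3) and 1 fell, where 14% of all genes passed, 8.25% higher and 5.72% lower. On the joint scale, the groups did not overlap for 2 of the 7 genes after IL-33 (Irf4 and Bach2), against 39.1% of all genes tested, and for 3 without replicate 3, against 58.3%. With Prdm1 deleted they did not overlap for 4 (Prdm1, Bcl6, Irf4 and Irf8), against 22.3% of all genes, and for 5 without Control replicate 2, against 51.3%. After IL-33 the count of 2 of 7 is near the share of all genes. Zfp683 and Pax5 were not tested in either, and no filter on low counts gave no call for them (adjusted p of 0.134 and 0.276 after IL-33, and 0.734 and 0.744 in the Blimp-1 experiment).

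Partners of Blimp-1 and signals known to act on Prdm1 were read from lists of genes. Of the 14 co-repressors that bind Blimp-1 or Bcl6, all tested, 4 rose and 3 fell after IL-33, where 16.2% of all genes tested rose and 16.1% fell (median log2 fold change -0.01, against 0.06 for all genes). Prmt5, an arginine methyltransferase that binds Blimp-1, rose by 0.78 (adjusted p = 0.00224, edgeR) and Ehmt2, which encodes the methyltransferase G9a, fell by 0.67 (adjusted p = 0.000260). Without replicate 3, 5 rose and 4 fell, where 27.5% and 29.7% of all genes did, and the gene that changed most was Tle4, a Groucho-type co-repressor, which fell by 1.34 (adjusted p = 1.35e-06). With all libraries its log2 fold change was -0.28 (adjusted p = 0.728), with replicate 3 at 76.2 CPM and the other stimulated libraries at 11.7 to 14.7 CPM. In the Blimp-1 experiment 0 of the 14 passed edgeR's threshold over all libraries, with 0 at an unadjusted p below 0.05 and 0 by DESeq2, and 0 passed without Control replicate 2, with 2 lower at an unadjusted p below 0.05 and 2 lower by DESeq2, against 31.2% and 19.5% of all genes in either direction. Of the 22 receptors, kinases and factors upstream of Prdm1, 7 rose and 3 fell after IL-33 (median 0.06), beside the same 16.2% and 16.1% of all genes, and 11 rose and 7 fell without replicate 3, beside 27.5% and 29.7%. Il10ra rose by 2.54 (adjusted p = 9.31e-05), and the AP-1 partners of IRF4, Junb, Batf and Jun, by 1.95, 1.27 and 1.23 (adjusted p of 0.000276, 0.000248 and 0.00890). Fos, another AP-1 gene of this list, fell by 1.44 without replicate 3 (adjusted p = 5.59e-06, edgeR). It was at 14.3 to 19.1 CPM in Unstimulated and 5.47 to 6.52 CPM in stimulated libraries, apart from replicate 3 at 17.9 CPM. With Prdm1 deleted, 0 of the 22 passed over all libraries in edgeR, while 6 were higher and 3 lower at an unadjusted p below 0.05 (11.9% of all genes) and DESeq2 called 3 higher and 1 lower (5.86% of all genes). Without Control replicate 2, 5 rose and 2 fell, where 8.25% and 5.72% of all genes did, with Stat4 higher by 0.89 (adjusted p = 0.00137) and Il2ra, the IL-2 receptor alpha chain, lower by 0.69 (adjusted p = 0.00641).

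Genes that Blimp-1 represses in B or T cells made a list of 18, of which 16 could be tested in the Blimp-1 experiment. With all libraries 0 passed in edgeR (median log2 fold change 0.61, against -0.02 for all genes tested), while 7 were higher and 1 lower at an unadjusted p below 0.05 and DESeq2 called 4 higher and 1 lower, against the same 11.9% and 5.86% of all genes. Without Control replicate 2, 6 rose and 1 fell (median 0.59, against 0.01), where 14% of all genes passed. Bcl6 and Id3 are among those that rose, and Tcf7, a factor of stem-like lymphocytes, rose by 1.88 (adjusted p = 0.0148, edgeR), while Klf2, which governs lymphocyte egress, fell by 0.75 (adjusted p = 0.0331). S1pr1, the egress receptor that Klf2 induces, rose by 0.82 (adjusted p = 0.0159). Ifng and Il2 rose by 2.01 (adjusted p = 0.0310) and 3.21 (adjusted p = 0.00347) in the same fit, both at low levels. Ifng was at 0.435 and 0.157 CPM in Control replicates 1 and 3 and at 0.859 to 1.35 CPM in Blimp-1-deficient libraries. Il2 was at 0.0701 and 0.109 CPM in the same Controls and at 0.689 to 0.941 CPM in Blimp-1-deficient libraries. With all libraries neither passed (adjusted p of 0.238 and 0.0541, edgeR). Of the E protein and Id family, 7 of 7 were tested, and 3 fell after IL-33 and 0 rose in edgeR, where 16.1% of all genes fell. At an unadjusted p below 0.05 5 fell and 0 rose, and DESeq2 gave the same counts, where 43.9% and 36.7% of all genes passed in either direction. Id2, the Id protein that ILCs need for their development, fell by 0.37 (adjusted p = 0.0426) and the E protein gene Tcf12 by 0.23 (adjusted p = 0.0336). Without replicate 3, 6 fell, Id3 among them, where 29.7% of all genes did.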

How the data were processed

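RNA-seq libraries were made from sorted ILC2s with the SMART-seq v4 kit and Nextera XT. By the study's methods, the authors used cutadapt 1.18 for trimming, HISAT2 2.1.0 for alignment to GRCm38 and Subread to count reads per gene, while the processing notes of the submitters name Bowtie2 in place of HISAT2. They deposited whole-number counts with no normalization and, in a second table, TPM, the counts divided by gene length and scaled to the library. All 315421 TPM values above 0 were rebuilt from counts and length within 1%. Strand settings are not given in the sources used here.

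The 9 members and the other gene lists were chosen with earlier results of these data known. Each experiment was fitted alone with edgeR 4.0.16 (TMM, filterByExpr, quasi-likelihood test, two-sided) in R 4.3.3, with Benjamini-Hochberg adjustment over all genes tested and a threshold of 0.05 on the adjusted p. Intervals are the log2 fold change ± the t quantile times its standard error. CPM come from TMM factors over all 14 libraries. Single low genes were compared by an exact permutation test with SciPy 1.17.1. From each list were named up to 4 genes that passed the threshold, had 5 CPM or more on average and changed most, with genes that start within 500 kb of Prdm1. Ifng, Il2, Eomes and, after IL-33, Ccr7 and Klf2 fall outside this rule and were chosen after their values were seen.

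The alternatives were DESeq2 1.42.0, its size factors in edgeR, library size alone, no filter or a mean count of at least 50, limma 3.58.1 on log2(TPM + 1) or log2(TPM + 0.1) for genes averaging 1 TPM or more, voom with sample quality weights, a block for the replicate number, and fits without single libraries. The fitting code was tested on simulated data with known changes. Limits of 3 counts cover counting error only, as reads carry no molecular identifiers.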

Additional observations from a re-analysis of the deposited data

Results flagged for a closer look

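Among 17 sets of 4 values, 1 for each gene with counts and each group of 4 libraries, 2 held a value far from the other 3 by Dixon's criterion, a size of gap that chance gives in about 1 of 20 sets. Bcl6 was at 13.96 CPM in IL-33 stimulated replicate 3, against 1.77 to 2.65 CPM in the other stimulated libraries. Id3 was at 17.7 CPM in the same library, against 5.65 to 6.18 CPM. Bcl6 and Id3 were both measured in the library with the fewest counts, in which 7 of 14 myeloid markers were highest of the stimulated libraries, 2 were lowest and 3 were at 0. The 3 at 0 did not exceed 0.0904 CPM in the other stimulated libraries, less than the 0.0963 CPM of 1 count in this one. The part of other cells in either level was not tested.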

How the results depend on the processing

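After IL-33, Bach2 and Irf4 passed the threshold under all 18 alternatives run, and Prdm1, Bcl6 and Irf8 under none. The count of members past it was 4 in place of 2 with library size alone, limma on log2(TPM + 1) and limma on log2(TPM + 0.1), where Maf and Id3 were added, 3 with DESeq2 and with voom weights, where Id3 was added, and 2 to 3 when 1 library was left out. These scalings move the all-gene median of the log2 fold changes from 0.06 to -0.10, -0.25 and -0.29. Bcl6 turned to -0.22 with voom weights, to -0.10 with DESeq2 without replicate 3 and, over the fits that leave out 1 library, ran from -0.14 (without replicate 3) to 1.29. Maf turned to 0.0028 with voom weights and 0.019 with DESeq2 without replicate 3.

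In the Blimp-1 experiment the count of members was 3 with DESeq2, 4 with voom weights and with DESeq2 without Control replicate 2, 0 with library size alone, limma on log2(TPM + 1) and limma on log2(TPM + 0.1), and 0 to 3 when 1 library was left out, with 0 without any of the Blimp-1-deficient libraries and 3 without Control replicate 2. Prdm1 kept its direction under all 16 alternatives, at -2.12 with library size alone (adjusted p = 0.277), -0.98 and -0.92 with limma (adjusted p of 0.549 and 0.594) and -2.80 to -2.57 when 1 library was left out. With library size alone the median of all genes moved to 0.45, and with limma on TPM to 1.28 and 1.69, as most TPM of Control replicate 2 lie on 7 loci. Maf turned to -0.016 at a mean count of at least 50, -0.035 with voom weights and -0.032 with DESeq2 without Control replicate 2, and ran from -0.021 to 0.058 when 1 library was left out. Id3 turned to -0.039 at a mean count of at least 50 and ran from -0.28 (without Control replicate 3) to 0.61 (without Control replicate 2).

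The numbers were not taken to pair libraries, as the design text gives separate mice in each group. Deviations of same-numbered libraries correlated at 0.18 to 0.28 for 3 of 4 pairs after IL-33, at -0.14 for the other, and at -0.13 to 0.12 in the Blimp-1 experiment, with 5 of 8 and 2 of 6 libraries correlating best with their own number. With the replicate block, 0 members passed in the Blimp-1 experiment, Prdm1 at -2.68 (adjusted p = 0.0660), and after IL-33 Id3 passed as well, at -1.20 (adjusted p = 0.0182). The cause of these differences was not tested. Depth limits Zfp683 and Pax5 in all libraries, and all low genes in Control replicate 2.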

Other observations

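Of 16 genes listed for tissue residency and egress, 14 could be tested after IL-33, and 3 rose and 2 fell, a share near the 32.3% of all genes that passed (median log2 fold change 0.01, against 0.06 for all genes tested). Without replicate 3, 3 rose and 5 fell, near the 57.2% of all genes. Nr4a1, an immediate early gene of antigen and alarmin signals, rose by 3.87 on the log2 scale (adjusted p = 1.24e-05, edgeR), and Cd69, which holds lymphocytes in tissue, rose by 0.85 (adjusted p = 0.000342). Ccr7, the receptor that guides lymphocytes to lymph nodes, rose by 1.51 (adjusted p = 0.00237), while Klf2 fell by 1.34 (adjusted p = 0.0150) and Tcf7 by 1.32 (adjusted p = 0.00119). With Prdm1 deleted 1 of 15 tested passed with all libraries, Eomes, a T-box factor of NK cells and CD8+ T cells, which fell by 2.65 (adjusted p = 0.0398), where 0.756% of all genes passed. It was at 2.44 to 2.73 CPM in Control and 0.294 to 0.592 CPM in Blimp-1-deficient libraries. Eomes is also among 10 markers of NK cells and type 1 ILCs. Their sum was 85.8 to 170 CPM in Control and 23.1 to 87.2 CPM in Blimp-1-deficient libraries. Of the 9 tested, 3 were lower and 1 higher at an unadjusted p below 0.05 (edgeR), where 11.9% of all genes passed in either direction. Their part in the fall of Eomes was not tested. Without Control replicate 2, 3 of the 15 residency and egress genes rose and 3 fell, where 14% of all genes passed. Of 16 genes of the PRDM family 11 were tested in each experiment, and Prdm2 alone passed after IL-33 with all libraries, falling by 0.31 (adjusted p = 0.0200), whereas Prdm1 alone passed in the Blimp-1 experiment.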
